A study of Mus musculus with 8 samples.

Results

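The ErbB receptors and the neuregulin-type ligands were followed in RNA-seq of the mouse cortex at E15.5. They are 10 genes, chosen by symbol, among the 23284 gene symbols that were counted: the receptors Egfr, Erbb2, Erbb3 and Erbb4, the neuregulins Nrg1, Nrg2, Nrg3 and Nrg4, and the ligands Hbegf and Btc. All 10 were listed in every library. The study sequenced 4 libraries of C57BL/6 embryos labelled WT and 4 of embryos labelled ErbB4 -/-, to find genes whose expression depends on ErbB4. Loss of ErbB4 in the whole animal is lethal in the embryo, and the ErbB4 -/- mice live through an ErbB4 transgene that the alpha-MHC promoter drives in the heart. Each line was kept as a homozygous colony, so the embryos of the 2 genotypes were not littermates, and litters were not named. The tissue was dorsal cortex without meninges and ganglionic eminences. Nothing in the labels ties a library to its own animal, so p-values measure the spread between these libraries.

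The ErbB receptors are receptor tyrosine kinases that work in pairs. Egfr binds EGF, TGF-alpha, HB-EGF and betacellulin. Erbb2 has no known ligand of its own and serves as the preferred partner of the others, and Erbb3 binds neuregulins but has a weak kinase, so that it signals mainly through its partner. Erbb4 binds all neuregulins as well as HB-EGF and betacellulin and has an active kinase. In the embryonic forebrain Erbb4 is best known from interneurons that migrate from the ganglionic eminences into the cortex, and neuregulins are among the cues on their route. Ligands are made as membrane proteins whose EGF-like motif, held by paired cysteines, contacts the receptor.

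The receptors are close relatives, so the stretch that encodes the catalytic loop of the kinase is shown to let the genes be compared at the level of bases. Each stretch is 60 bases of exon 21, read from the mouse genome (NCBIM37, mm9) on the coding strand, and the capitals mark the codon of the catalytic aspartate. Egfr was read from chr11:16804320-16804379 (plus strand), Erbb2 from chr11:98295540-98295599 (plus strand), Erbb3 from chr10:128009574-128009633 (minus strand) and Erbb4 from chr1:68127298-68127357 (minus strand).
Egfr: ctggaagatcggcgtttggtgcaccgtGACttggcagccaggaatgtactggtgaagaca
Erbb2: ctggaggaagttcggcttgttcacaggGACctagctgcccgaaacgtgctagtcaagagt
Erbb3: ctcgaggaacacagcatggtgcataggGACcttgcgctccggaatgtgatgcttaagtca
Erbb4: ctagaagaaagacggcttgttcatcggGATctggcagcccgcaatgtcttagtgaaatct
Between 36 (Erbb3 and Erbb4) and 42 (Erbb2 and Erbb4) of the 60 bases were identical in a pair. In the protein-coding transcripts, on the coding strand, the longest run shared by any pair of the 10 genes was 22 bases (Erbb2 and Erbb4). Reads had 50 bases, so within these sequences no error-free read could match a pair of members equally well. Matches to the opposite strand and to other annotated exons were not searched.

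The EGF-like motif is shown for the ligands Nrg1, Nrg3, Nrg4 and Btc, since it is the part of a ligand that binds the receptor and the part that the genes have in common. The capitals mark the codons of its 6 cysteines, and the sequence is again that of NCBIM37 on the coding strand, here the minus strand for each gene. In every case the motif is split over 2 exons, with the last 31 bases in the second of them. Nrg1 was joined from chr8:32959782-32959870 and chr8:32948170-32948200, and Nrg3 from chr14:39825257-39825342 and chr14:39481549-39481579. Nrg4 was joined from chr9:55128697-55128776 and chr9:55089984-55090014, and Btc from chr5:91795147-91795223 and chr5:91791447-91791477.
Nrg1: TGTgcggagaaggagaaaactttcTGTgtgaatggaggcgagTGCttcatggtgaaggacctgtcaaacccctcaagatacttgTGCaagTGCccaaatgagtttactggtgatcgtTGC
Nrg3: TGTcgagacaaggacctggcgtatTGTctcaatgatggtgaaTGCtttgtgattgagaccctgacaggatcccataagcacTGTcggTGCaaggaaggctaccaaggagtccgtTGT
Nrg4: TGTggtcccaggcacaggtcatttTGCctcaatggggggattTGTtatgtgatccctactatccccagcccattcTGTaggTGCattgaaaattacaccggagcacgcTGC
Btc: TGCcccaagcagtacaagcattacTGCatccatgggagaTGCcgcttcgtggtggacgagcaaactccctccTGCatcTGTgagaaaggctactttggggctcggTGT
The motifs were 120 bases long in Nrg1, 117 in Nrg3, 111 in Nrg4 and 108 in Btc.

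Erbb4 messages differ in the stretch just outside the membrane, where 1 of 2 alternative exons is used and only the JMa form can be cut by the protease TACE. The annotation held each exon in 2 of 4 coding transcripts. The exon of 75 bases lies at chr1:68336817-68336891 and the exon of 45 bases at chr1:68337013-68337057 (NCBIM37, minus strand).
Erbb4 exon of 75 bases: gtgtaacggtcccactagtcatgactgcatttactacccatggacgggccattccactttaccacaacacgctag
Erbb4 exon of 45 bases: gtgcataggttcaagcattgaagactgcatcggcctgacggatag
The deposited values are reads per gene, so the Erbb4 value in each library is the sum over both forms and over all exons, and the forms were not told apart.

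Depth was similar, at 28205703 to 48871480 counts per library, and the values below are CPM, counts scaled to a common library size with edgeR's TMM factors (0.994 to 1.01). WT replicate 1 stood apart from the other 7 libraries on the first principal component (30.6% of the variance, score -38.9 against -6.07 to 15.48). In this library genes with long exons were low: across 14253 genes the departure from the other libraries fell with exon length (Spearman's rho -0.52 across genes, which are not independent replicates), against 0.033 to 0.202 in the others. Xist, made in female cells, was at 983 to 1687 CPM in WT replicates 1 to 3 and at 2.7 to 3.82 CPM in WT replicate 4 and every library labelled ErbB4 -/-. Ddx3y, of the Y chromosome, had the reverse pattern, so this pattern and the genotype label coincided in 7 of 8 libraries. Markers of excitatory cortical neurons summed to 3159 to 3643 CPM and those of interneurons to 922 to 1178 CPM over all 8 libraries, so cells from the ganglionic eminences were represented although the eminences had been dissected off. In whole tissue, fewer cells of a type and less RNA per cell cannot be told apart.

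The members covered a wide range of levels. To compare genes, CPM was divided by the length of the union of their annotated exons, and all levels in this and the next paragraph are means ± SD of CPM per kilobase over the 4 WT libraries. Nrg3 was the highest at 7.71 ± 0.849, above 50.3% of 14253 tested genes with a known length, whose median was 7.61. Hbegf (4.57 ± 0.621) and Nrg1 (4.22 ± 0.732) followed, and their ranges overlapped, so their order was not resolved. Erbb2 was the highest receptor at 2.99 ± 0.354, below Nrg1 in all 4 libraries, though the ranges of the 2 genes overlapped.

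Erbb4 came next at 1.48 ± 0.551, below Erbb2 in each WT library and with no overlap of their ranges. Its range overlapped with that of Nrg2 (0.832 ± 0.129), because Erbb4 lay below Nrg2 in WT replicate 1. Egfr was lower at 0.31 ± 0.036, with no overlap with Nrg2. Nrg4 (0.0951 ± 0.0535) and Erbb3 (0.0736 ± 0.0164) overlapped, and these means were above 1.49% and 0.968% of the tested genes. Btc was the lowest at 0.0305 ± 0.0209. With the longest transcript in place of the exon union, Nrg1 ranked the second and Hbegf the third in each genotype, and Nrg4, whose exon union of 6079 bases is far above its longest transcript of 2095 bases, rose to 0.276 ± 0.155 in the WT libraries.

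**Figure D1:**
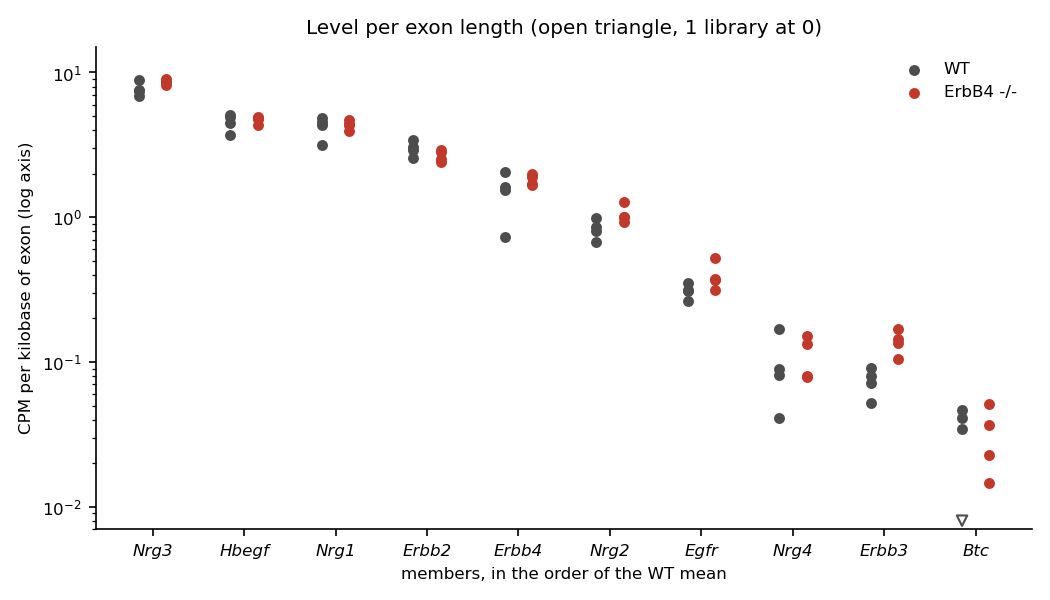
Level of the 10 members per exon length, in CPM per kilobase on a log axis, with each point a library (grey, labelled WT; red, labelled ErbB4 -/-). Members are ordered by their WT mean, from Nrg3 at 7.71 to Btc at 0.0305, and the open triangle stands for the WT library without a Btc read.

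Erbb4, the gene named by the knockout (chr1:68078760-69154633, minus strand), had a higher mean level in the libraries labelled ErbB4 -/- than in the WT libraries. The WT libraries had 252, 619, 971 and 673 reads, or 8.99, 19.9, 25.3 and 19.2 CPM in replicates 1 to 4. The libraries labelled ErbB4 -/- had 1030, 857, 810 and 740 reads, or 20.9, 24.6, 20.7 and 23.5 CPM. WT replicate 1 was the lowest of the 8 and WT replicate 3 the highest, and the groups overlapped. The fitted difference (labelled ErbB4 -/- over labelled WT, here and below) was 0.28 on the log2 scale (SE 0.226, 95% interval -0.21 to 0.78), and did not pass (adjusted p = 0.812, edgeR quasi-likelihood test). The exact two-sided permutation test of log2 CPM over the 70 assignments of the 8 libraries gave p = 0.257, where the smallest p it can give is 0.0286. As a fold the interval ran from 0.864 to 1.72, so a level below 0.864 of the WT level lay outside it.

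The result leaned on WT replicate 1. Without it the difference in Erbb4 was 0.06 (SE 0.105, 95% interval -0.17 to 0.29, adjusted p = 0.938 in edgeR), and without WT replicate 3 it was 0.48 (adjusted p = 0.733 in edgeR). The WT mean rose from 18.3 ± 6.81 CPM (SD, n = 4) to 21.4 ± 3.36 CPM (SD, n = 3) when replicate 1 was left out, beside 22.4 ± 1.92 CPM (SD, n = 4) in the libraries labelled ErbB4 -/-. The summed interneuron markers were 938 to 1178 CPM in the WT libraries and 922 to 1165 CPM in those labelled ErbB4 -/-. Of these 18 genes 0 passed the adjusted test in edgeR, where 0.0272% of all tested genes did. At an unadjusted p under 0.05 there was 1, where 5.53% of all tested genes had such a p. Gene counts do not show which exons the reads came from, so the Erbb4 count does not show whether the altered part of the gene is in the message. Because the count did not separate the genotypes, the directions given here follow the labels. The mouse lines had been genotyped by PCR on tail DNA.

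**Figure D2:**
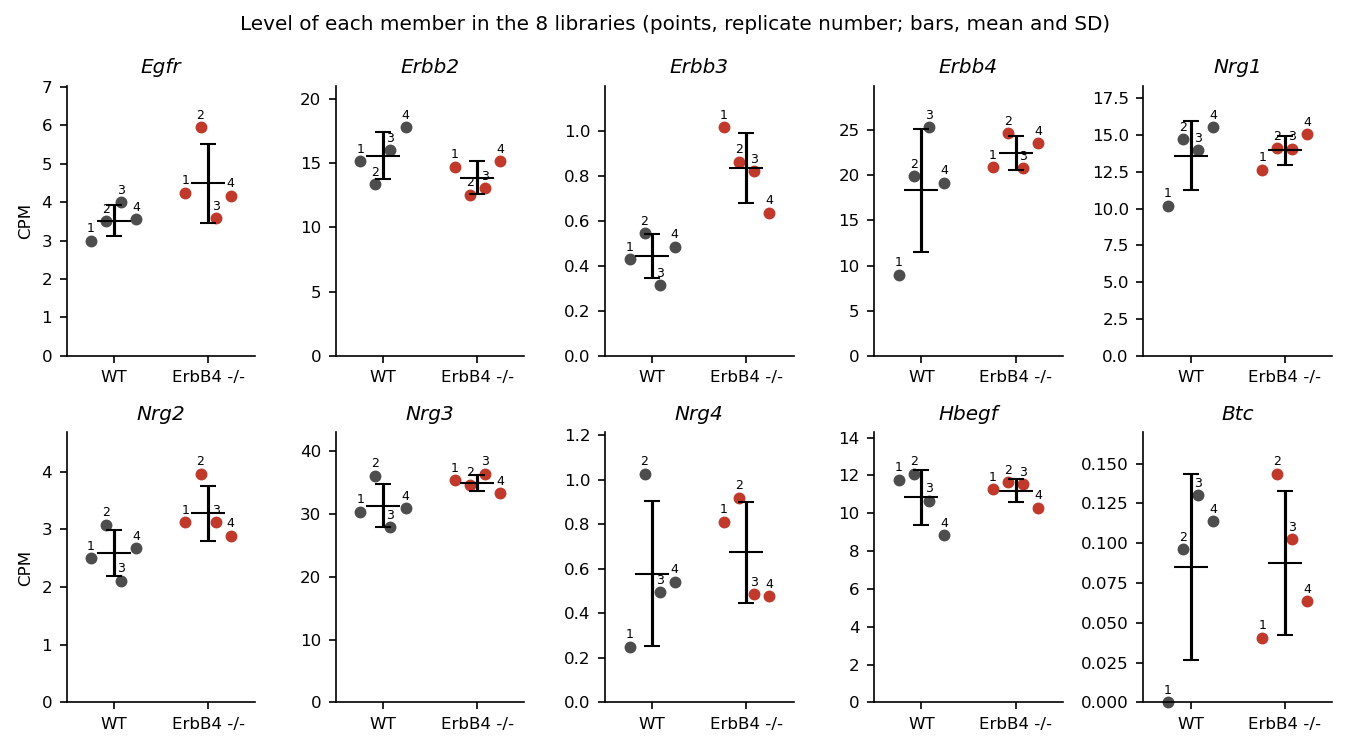
CPM of each member in the 8 libraries, with points numbered by replicate (grey, labelled WT; red, labelled ErbB4 -/-) and bars for the mean and SD of 4 libraries. Erbb3 is the member whose groups lie apart (0.313 to 0.545 against 0.635 to 1.02 CPM), and Erbb4 in WT replicate 1 lies at 8.99 CPM, below all other libraries.

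Among the other receptors, Erbb3 had the largest difference and Erbb2 was the only tested member with a lower mean in the libraries labelled ErbB4 -/-. Erbb3 (chr10:128004579-128026708, minus strand), which is known from cells of the oligodendrocyte and Schwann cell lineages, had 12, 17, 12 and 17 reads in the WT libraries and 50, 30, 32 and 20 reads in those labelled ErbB4 -/-. These were 0.428, 0.545, 0.313 and 0.484 CPM against 1.02, 0.862, 0.82 and 0.635 CPM. Every library labelled ErbB4 -/- was above every WT library, the nearest pair being WT replicate 2 and ErbB4 -/- replicate 4, the latter with 20 reads. The log2 difference was 0.93 (SE 0.263, 95% interval 0.35 to 1.51), a fold of 1.91. Its unadjusted p was 0.0044, and over the 14696 genes tested its adjusted p was 0.81 in edgeR, so it did not pass. The exact permutation test gave p = 0.0286, the smallest it can give.

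Markers of cells that use Erbb3 were read in the same libraries. Sox10, a transcription factor of oligodendrocyte precursors and neural crest, was at 3.17, 3.79, 2.29 and 1.99 CPM in the WT libraries and at 4.45, 4.62, 4.15 and 3.88 CPM in those labelled ErbB4 -/- (log2 difference 0.61, adjusted p = 0.81 in edgeR). Of the 5 markers of oligodendrocyte precursors 0 passed the adjusted test in edgeR, 2 had an unadjusted p under 0.05 and all 5 had a higher fitted level, with a median log2 difference of 0.18, where 5.53% of all tested genes had such a p and 49.2% were higher. Their summed level was 49.9 to 65.1 CPM in the WT libraries and 56.7 to 71.9 CPM in those labelled ErbB4 -/-. Foxd3, a neural crest marker, lay at 0 to 0.499 CPM over the 8 libraries. The part of such cells in the Erbb3 difference was not tested.

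Egfr (chr11:16652206-16818161, plus strand), the receptor of EGF and TGF-alpha in neural progenitors, had 84, 109, 153 and 125 reads in the WT libraries and 209, 207, 140 and 131 in those labelled ErbB4 -/-. The levels were 3, 3.5, 3.99 and 3.56 CPM against 4.24, 5.95, 3.59 and 4.16 CPM. ErbB4 -/- replicate 2 was the highest, and the groups overlapped. The log2 difference was 0.35 (SE 0.169, 95% interval -0.02 to 0.72, adjusted p = 0.81 in edgeR), and without ErbB4 -/- replicate 2 it was 0.18. Markers of progenitors were read beside it. Of 10 radial glia markers 4 had an unadjusted p under 0.05, against 5.53% of all tested genes, and all 4 were lower in the libraries labelled ErbB4 -/-, with log2 differences from -0.27 to -0.19, Nes (-0.23) and Vim (-0.19) among them. In the whole list 3 of 10 were higher, up to 0.21 in Hopx, and the median was -0.16. Of 5 markers of intermediate progenitors 2 had such a p, Neurog1 (-0.64) and Neurog2 (-0.35), both lower, while 1 of the 5, Insm1, was higher (0.11) and the median was -0.14. These were named after their values were seen, and 0 of the 15 passed the adjusted test (adjusted p = 0.81 for each of those named, edgeR). The part of progenitor number in the Egfr level was not tested.

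Erbb2 (chr11:98273784-98299030, plus strand) was at 15.1, 13.3, 16 and 17.8 CPM in the WT libraries and at 14.7, 12.5, 13.1 and 15.2 CPM in those labelled ErbB4 -/-. The reads behind these were 416 to 624 and 436 to 725. WT replicate 4 was the highest, and the groups overlapped. Erbb2 differed by -0.17 on the log2 scale (SE 0.104, 95% interval -0.39 to 0.06, adjusted p = 0.81 in edgeR), by -0.097 without WT replicate 4 and by -0.23 without WT replicate 2. As annotated, 9 bases of its exons overlap with another gene.

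Of the neuregulins, none of Nrg1, Nrg2, Nrg3 and Nrg4 passed the adjusted test. Nrg1 (chr8:32928500-33119581, minus strand), the ligand most studied in interneuron migration and Schwann cells, was at 10.2, 14.7, 13.9 and 15.53 CPM in the WT libraries and at 12.6, 14.1, 14.1 and 15.1 CPM in those labelled ErbB4 -/-. WT replicate 1 was the lowest, and the other 7 libraries lay between 12.6 and 15.53 CPM. Its log2 difference was 0.03 (SE 0.123, 95% interval -0.23 to 0.30, adjusted p = 0.959 in edgeR). Without WT replicate 1 it was -0.08, so the sign was not fixed by these data. As annotated, 100 bases of the Nrg1 exons overlap with Gm17443 on the other strand, which these libraries do not keep apart.

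Nrg2 (chr18:36177333-36357034, minus strand) was at 2.5, 3.08, 2.11 and 2.68 CPM in the WT libraries and at 3.13, 3.96, 3.12 and 2.89 CPM in those labelled ErbB4 -/-. The groups overlapped only because WT replicate 2 lay above ErbB4 -/- replicate 4. The log2 difference was 0.34 (SE 0.163, 95% interval -0.02 to 0.70), with an unadjusted p of 0.0596 and an adjusted p of 0.81 in edgeR. The exact permutation test gave p = 0.0571.

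Nrg3 (chr14:39182138-40286376, minus strand), a neuregulin made chiefly in the nervous system and known to bind Erbb4, was the most abundant member. Its levels were 30.3, 36.1, 27.9 and 30.9 CPM in the WT libraries and 35.3, 34.6, 36.4 and 33.2 CPM in those labelled ErbB4 -/-, from 850 to 1741 reads. WT replicate 2 was as high as the libraries labelled ErbB4 -/-, and the other WT libraries were lower. On the log2 scale Nrg3 differed by 0.16 (SE 0.0816, 95% interval -0.02 to 0.34, adjusted p = 0.81 in edgeR). It was 0.23 without WT replicate 2 (95% interval 0.08 to 0.39, adjusted p = 0.525 in edgeR). Without WT replicate 3 it was 0.11 (95% interval -0.07 to 0.28). The interval included 0 with any library other than WT replicate 2 left out. Spread was small for this gene, with a coefficient of variation of 11% in the WT libraries and 3.78% in those labelled ErbB4 -/-.

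Nrg4 (chr9:55068029-55174651, minus strand), which binds Erbb4 and is best known from fat tissue, was rare. It had 7, 32, 19 and 19 reads in the WT libraries and 40, 32, 19 and 15 in those labelled ErbB4 -/-. In CPM these were 0.25, 1.03, 0.495 and 0.541 against 0.812, 0.919, 0.487 and 0.476, and the WT range enclosed the other. The log2 difference was 0.23 (SE 0.386, 95% interval -0.62 to 1.07, adjusted p = 0.9 in edgeR), too wide to exclude a change of 1.5-fold in either direction. It was 0.63 without WT replicate 2 and 0.00029 without WT replicate 1. Of its annotated exons 545 bases overlap with Fbxo22 and a pseudogene on the other strand, and the libraries do not keep the strand, so its reads cannot be fully told apart from theirs.

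Of the other ligands, Hbegf was well expressed and Btc close to absent. Hbegf (chr18:36664583-36675459, minus strand), a heparin-binding ligand of Egfr and Erbb4, was at 11.8, 12.1, 10.7 and 8.83 CPM in the WT libraries and at 11.3, 11.6, 11.5 and 10.3 CPM in those labelled ErbB4 -/-. The latter lay within the range of the former. Hbegf differed by 0.05 on the log2 scale (SE 0.108, 95% interval -0.19 to 0.28, adjusted p = 0.929 in edgeR), and without WT replicate 4 it was -0.04.

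Btc (chr5:91786287-91831939, minus strand), which encodes betacellulin, a ligand of Egfr and Erbb4, had 0, 3, 5 and 4 reads in the WT libraries and 2, 5, 4 and 2 in those labelled ErbB4 -/-. The sums were 12 and 13 reads. The absence of reads in WT replicate 1 allows a level of up to 0.106 CPM, which is 3 reads at its depth, counting error only. Btc did not pass the filter on low counts, which asks for about 10 reads in 4 libraries, and was not tested with the other 9 members. No difference was detectable at this depth.

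In all, 0 of the 9 tested members passed an adjusted p of 0.05, where 4 of 14696 tested genes did (0.0272%), 1 higher and 3 lower in the libraries labelled ErbB4 -/-. At an unadjusted p under 0.05 there was 1 member, Erbb3, beside 812 genes (5.53% of those tested). Erbb3 was also the 1 member whose groups did not overlap on log2 CPM, beside 491 genes (3.34%). With DESeq2 and limma-voom 0 members passed as well. In the edgeR ranking by p, 73 genes lay ahead of Erbb3. Of the 9 members, 8 had a higher fitted level in the libraries labelled ErbB4 -/-, among them Hbegf and Nrg1 whose signs changed in other fits, beside 49.2% of all tested genes. The median log2 difference of the members was 0.23 and that of all tested genes -0.0022. Without WT replicate 1 the members' median was 0.09 and 7 of 9 were higher.

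**Figure D3:**
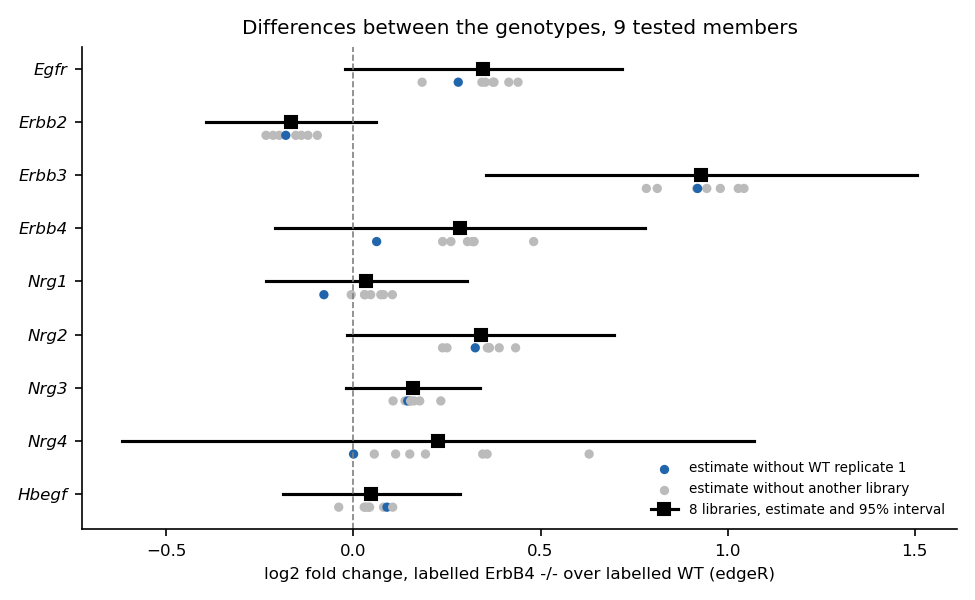
Log2 fold change of each tested member, labelled ErbB4 -/- over labelled WT, with squares and lines for the edgeR estimate and its 95% interval from 8 libraries and points for the estimates with 1 library left out (blue, WT replicate 1). The interval of Erbb3 (0.35 to 1.51) lies above 0 before adjustment for the genes tested, and the estimate for Erbb4 moves from 0.28 to 0.06 without WT replicate 1.

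Sex and genotype label were largely confounded, as among the WT libraries only WT replicate 4 shared the low Xist level of the libraries labelled ErbB4 -/-. Against this library, all 4 libraries labelled ErbB4 -/- were higher in Erbb3 (0.484 against 0.635 to 1.02 CPM). They were higher as well in Erbb4 (19.2 against 20.7 to 24.6 CPM), Egfr (3.56 against 3.59 to 5.95 CPM) and Nrg2 (2.68 against 2.89 to 3.96 CPM). The same held for Nrg3 (30.9 against 33.2 to 36.4 CPM) and Hbegf (8.83 against 10.3 to 11.6 CPM). All 4 were lower in Erbb2 (17.8 against 12.5 to 15.2 CPM) and in Nrg1 (15.53 against 12.6 to 15.1 CPM). Nrg4 (0.541 against 0.476 to 0.919 CPM) was higher in 2 of the 4 and Btc (0.114 against 0.041 to 0.144 CPM) in 1 of the 4. With a single WT library these values carry no test. With the log2 Xist level as a covariate, the log2 difference was 0.76 for Erbb3, 0.30 for Erbb4, 0.36 for Egfr and -0.36 for Erbb2. For the ligands it was 0.34 for Hbegf, -0.12 for Nrg1, 0.30 for Nrg2, 0.18 for Nrg3 and 0.38 for Nrg4. In this fit 0 members passed the adjusted test. The fit tells label from Xist almost only through WT replicate 4, so not passing decides little.

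The make-up of the receptor transcripts was read within each library, as the share of each gene in the summed CPM per kilobase of the 4 receptors. Erbb2 held the largest share, 73.2, 56.1, 55.6 and 63.7% in the WT libraries and 55.8, 47.5, 54 and 55% in those labelled ErbB4 -/-. Erbb4 held 18.3, 35.2, 37.1 and 29% in the WT libraries and 33.4, 39.3, 36.2 and 36% in those labelled ErbB4 -/-. The lowest Erbb4 share was that of WT replicate 1, where there were 0.251 Erbb4 transcripts per Erbb2 transcript by this measure, against 0.455 to 0.8289 in the other libraries. Egfr held 5.87 to 10.4% and Erbb3 0.942 to 3.33% over the 8 libraries. The shares rest on exon lengths that may differ from those of the messages present.

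Among the ligands, Nrg3 held the largest share in each library, 41.6 to 47% of the summed CPM per kilobase of the 6 ligands. Hbegf held 21.7 to 30.2%, Nrg1 19.3 to 28.1% and Nrg2 4.11 to 6.59%. Nrg4 held at most 0.855%. Nrg3 was 1.58 to 2.36 times Nrg1 per kilobase in the WT libraries and 1.75 to 2.22 times in those labelled ErbB4 -/-. All 10 members together took 82.1 to 105 CPM of the library total in the WT libraries and 103 to 109 CPM in those labelled ErbB4 -/-.

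**Figure D4:**
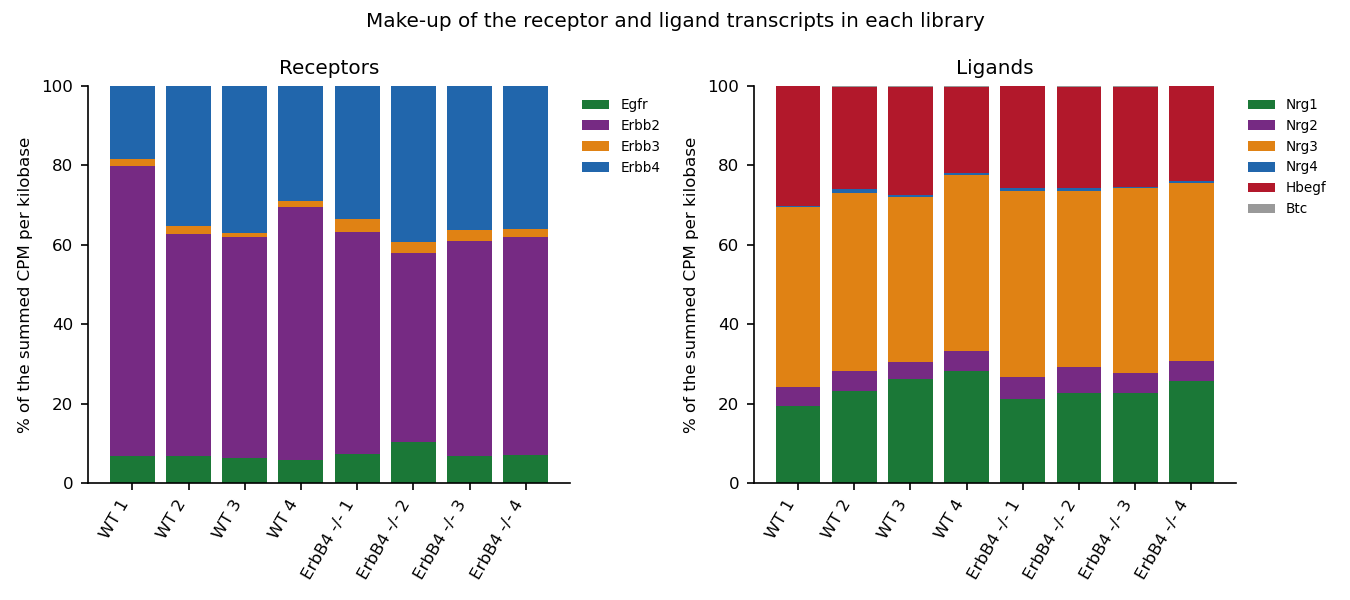
Share of each receptor (left) and ligand (right) in the summed CPM per kilobase of its class, in percent, with a bar for each library. Erbb2 and Erbb4 make up most of the receptor transcripts in every library, the Erbb4 share being 18.3% in WT replicate 1 and 29 to 39.3% elsewhere, and Nrg3 leads the ligands at 41.6 to 47%.

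WT replicate 1 departed from its group in some members and not in others. Relative to the mean of the other 3 WT libraries, its log2 CPM departed by -1.24 in Erbb4, -1.21 in Nrg4, -0.53 in Nrg1 and -0.29 in Egfr. In Erbb2, Erbb3, Nrg2 and Nrg3 the departure was between -0.05 and -0.03, and in Hbegf it was 0.17. The Nrg4 value rested on 7 reads, and WT replicate 2 departed about as far upward in Nrg4 (1.22, from 32 reads). Its departure is therefore not particular to WT replicate 1. Erbb4 and Egfr have the longest exons of the family, at 12355 and 11326 bases. The 447 tested genes at least as long as Egfr had a median departure of -0.41 in WT replicate 1, and 7 of them (1.57%) departed as far down as Erbb4. Nrg1, with 3220 bases of annotated exon, departed further than Egfr. With a smooth trend on exon length taken out of each library, the log2 difference between the labelled genotypes in Erbb4 was 0.23 (adjusted p = 0.747 in edgeR). RNA was sequenced only with an integrity number above 8, the numbers of single libraries were not used here, and the part of RNA quality in this departure was not tested.

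**Figure D5:**
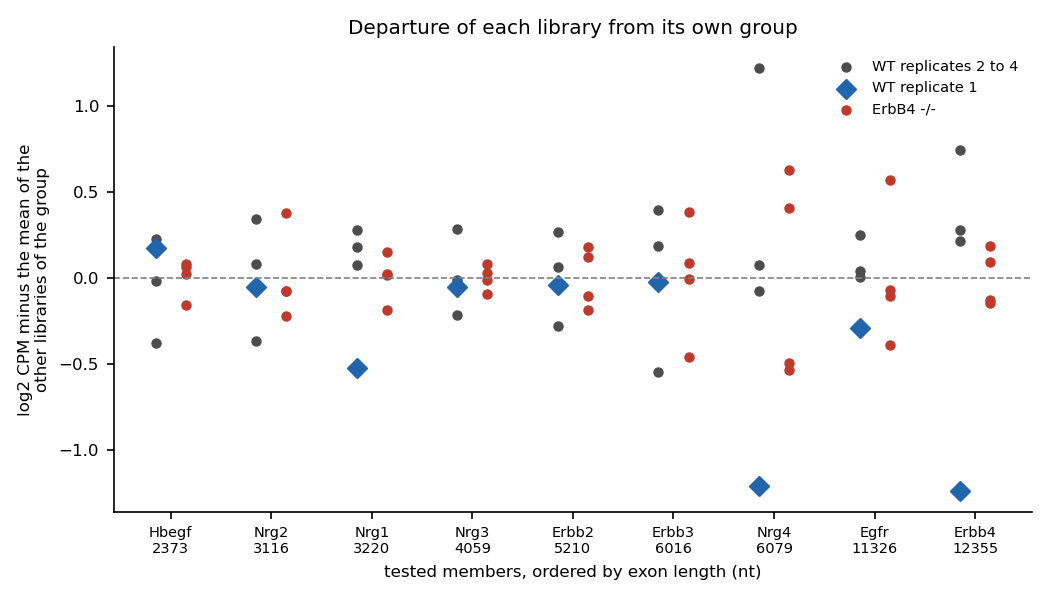
Departure of each library from the mean of the other libraries of its group, in log2 CPM, for the 9 tested members in order of exon length in bases. WT replicate 1 (blue diamonds) lies at -1.24 in Erbb4 but between -0.05 and 0.17 in Hbegf, Nrg2, Nrg3, Erbb2 and Erbb3. In Nrg4 it lies at -1.21, from 7 reads, while WT replicate 2 lies at 1.22.

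The rest of the pathway was read from 4 lists of genes, of which 64 genes were tested. Of these 0 passed in either direction with edgeR, DESeq2 or limma-voom, where 0.0272% of all tested genes passed in edgeR. At an unadjusted p under 0.05 in edgeR there was 1 (1.56%), beside 5.53% of all tested genes. Of the other EGF-family ligands, Areg, Ereg and Epgn were under the filter on low counts, Ereg without a read in any library. Tgfa, a ligand of Egfr, had the larger log2 difference of the remaining pair (0.21, adjusted p = 0.81 in edgeR), at 30.1 to 41.2 CPM in the WT libraries and 34.5 to 41.7 CPM in those labelled ErbB4 -/-. Egf had the smaller (-0.16, adjusted p = 0.8294 in edgeR), at 2.42 to 3.37 CPM against 2.23 to 2.96 CPM.

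The sheddases, which free the ligands and the Erbb4 ectodomain from the membrane, were listed with their cofactors Rhbdf1 and Rhbdf2, and 0 of these 8 genes passed. Their median log2 difference was 0.06, from -0.06 in Adam17, which encodes TACE (adjusted p = 0.863 in edgeR), to 0.32 in Adam12 (adjusted p = 0.81 in edgeR). The Adam12 value leaned on WT replicate 1, at 1.68 CPM against 3.31 to 3.79 CPM in the other WT libraries. Libraries labelled ErbB4 -/- had 2.92 to 4.53 CPM of Adam12. Adam17 lay at 38.6 to 45.7 CPM in the WT libraries and at 38.5 to 42.8 CPM in those labelled ErbB4 -/-. Of 13 genes of receptor turnover and inhibition 0 passed, with a median of 0.01. Cbl, a ubiquitin ligase of activated receptors, was at the top of this list (0.19). It had 18.9 CPM in WT replicate 1 against 45 to 54.9 CPM in the other 7 libraries. Stub1, a co-chaperone ligase, was at the bottom (-0.14). It had 57.3 CPM in WT replicate 1 against 39.9 to 49.7 CPM in the other WT libraries.

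Of 41 tested adaptors and effectors 0 passed, with a median log2 difference of 0.01. Their values ran from -0.10 in Hras1, a small GTPase, to 0.25 in Shc3, a neuronal adaptor. Both ends leaned on WT replicate 1. Hras1 was at 97.4 CPM in it, against 75.5 to 78.3 CPM in the other WT libraries. Shc3 was at 7.81 CPM in it, against 12.7 to 14.2 CPM in the other WT libraries. A single gene of the list, Pik3r1, a regulatory subunit of PI3 kinase and named here after its values were seen, had an unadjusted p under 0.05 (0.0122, log2 difference 0.23, adjusted p = 0.81 in edgeR).

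Among the genes whose levels followed Erbb4 most closely over the 8 libraries were Jmjd1c, Ankfy1, Usp34 and Taok1, given as a description. Pearson's r of log2 CPM was 0.994 for Jmjd1c, 0.993 for Ankfy1, 0.992 for Usp34 and 0.991 for Taok1, and Spearman's rho ran from 0.762 for Usp34 to 0.976 for Ankfy1. Without WT replicate 1 their coefficients were 0.903 to 0.937, and only 1 of the 5 closest genes stayed among the 5 closest. Such likeness was common, with 761 of 14695 genes at r of at least 0.9. The exon lengths were 11332 bases in Ankfy1, 12421 in Taok1 and 17637 in Usp34. Among the members the closest to Erbb4 were Nrg1 (r = 0.816) and Egfr (r = 0.683), and without WT replicate 1 these were -0.202 and 0.665.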

How the data were processed

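RNA of dorsal cortex at E15.5 was sequenced as single-end, non-stranded libraries. The authors used HISAT to place reads on mm9 and deposited raw counts per gene symbol made with HTSeq, and the gene annotation and counting mode are not given in the sources used here. Their table of fold changes, standard errors and p-values of their own comparison was not used. From the counts, CPM and log2 CPM (prior count 2) were computed with TMM factors in edgeR 4.0.16 (R 4.3.3). Genes passing filterByExpr (minimum count 10, minimum total 15) were tested with edgeR's quasi-likelihood test on genotype label, with Benjamini-Hochberg adjustment over 14696 genes and a threshold of 0.05. Single values were also tested with an exact permutation test. The fit includes counting error. Positions, lengths and sequences came from the GENCODE annotation and genome of NCBIM37 (mm9), by symbol. Hras and Erbin were found under older symbols.

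The members and lists were chosen with earlier results of these data known. The text names all members, from each pathway list the largest and smallest log2 difference and any called gene, and the 5 genes closest to Erbb4, apart from a gene that is not reported here. Marker lists covered radial glia, intermediate progenitors, excitatory neurons, interneurons, oligodendrocyte precursors, neural crest, meninges and vessels, and microglia. Of their 67 tested genes 0 passed the adjusted test in edgeR, DESeq2 or limma-voom, and 11 had an unadjusted p under 0.05 in edgeR (4 higher and 7 lower in the libraries labelled ErbB4 -/-), 16.4% against 5.53% of all tested genes. The summed radial glia markers were 2094 to 2669 CPM in the WT libraries and 2095 to 2287 CPM in the others, intermediate progenitors 695 to 841 and 637 to 775 CPM, meninges and vessels 166 to 179 and 165 to 180.3 CPM, and microglia 43.8 to 51.3 and 45.3 to 53.5 CPM. Alternatives were DESeq2 1.42.0, limma-voom (3.58.1), other normalizations and filters, a replicate block, Xist as a covariate, a length correction and each library left out. Scripts were tested on simulated data. Figures were drawn with matplotlib.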

Additional observations from a re-analysis of the deposited data

Results flagged for a closer look

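Of 102 groups of 4 libraries examined, 4 held a library whose gap to its nearest neighbour was large for the group's range by Dixon's test, and chance flags about 1 in 20 groups. Egfr made up 10.4% of the receptor transcripts per kilobase in ErbB4 -/- replicate 2, against 6.82 to 7.4% in the other libraries of that label. Nrg2 made up 4.11% of the ligand transcripts in WT replicate 3, against 4.87 to 5.01% in the other WT libraries. Tgfa was at 34.5 CPM in ErbB4 -/- replicate 4, against 40.7 to 41.7 CPM in the others of its label. Hras1 was at 97.4 CPM in WT replicate 1, against 75.5 to 78.3 CPM in the other WT libraries.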

How the results depend on the processing

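The fits of the 9 tested members under the alternatives gave 160 values, of which 156 kept their sign and stayed above the threshold and 4 changed sign. Those were Nrg1 with Xist as a covariate (-0.12), without WT replicate 1 (-0.079) and without ErbB4 -/- replicate 4 (-0.006; range with single libraries left out -0.079 to 0.10), and Hbegf without WT replicate 4 (-0.039; range -0.039 to 0.10). Adjusted p-values of the members ran from 0.349 to 1.00. Erbb4 stayed between 0.06 and 0.48 and Erbb3 between 0.76 and 1.04. The number of genes called moved from 4 to 23 with DESeq2 and to 1 with RLE factors, with upper-quartile factors, without the 10 most abundant genes, with the Xist covariate and with the replicate number as a block, and ran from 1 to 13 with single libraries left out, the highest without WT replicate 4. The cause was not tested. With a mean of at least 50 counts required, Erbb3 and Nrg4 were not fitted. The block gave 0.36 for Erbb4 and called 0 members. Same-numbered libraries correlated at 0.084, 0.135, 0.048 and 0.024, so the numbers were not taken as pairs. No pathway list gene passed under any alternative run. Depth limits Btc, Nrg4 and Erbb3, which rest on 50 reads or fewer per library.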
